A study of Mus musculus with 2 samples.

Results

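Prostaglandins are signalling lipids made from arachidonic acid, which phospholipase A2 frees from membranes. A cyclooxygenase turns the free acid into the intermediate PGH2, and a terminal synthase turns PGH2 into an active product such as PGE2 or prostacyclin. PGE2 then acts on receptors of the same or neighbouring cells, and the cyclooxygenase gene Ptgs2 is known as an early response gene whose mRNA is made quickly after growth factors, cytokines or synaptic activity. The 9 genes described here cover that route. They are the phospholipase gene Pla2g4a, the cyclooxygenase genes Ptgs1 and Ptgs2, the PGE2 synthase genes Ptges, Ptges2 and Ptges3, the prostacyclin synthase gene Ptgis, and the PGE2 receptor genes Ptger2 and Ptger4. They were chosen by name, and every probe set that the array annotation ties to them was taken, which gave 13 of the 45101 probe sets.

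Gene expression was measured on Affymetrix mouse GeneChip arrays in HT22 cells that had been plated in DMEM with 10% FCS. The published methods describe HT22 as a line of nerve cells from mouse brain, and levels of cell type markers on these arrays are given below. One culture received the compound J147 for 1 h and the other, by its sample title, received the DMSO vehicle for 1 h. The treatment label of that vehicle sample reads untreated. The J147 concentration is 10 μM in the published methods and 10 mM in the sample labels. Each condition was measured on 1 array, so every difference below compares a pair of cultures, has no error between replicates and carries no p-value, and the compound cannot be told apart from anything else that differed between these cultures.

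Of the 9 genes, 7 had probe sets of their own, 11 in all. Ptges3 was covered only by 2 probe sets that the annotation also gives to the pseudogene Ptges3-ps, and the annotation used here lists no probe set for Ptgs1. A probe set was scored when its mean intensity over both arrays exceeded 100 after each array had been scaled to a median of 100, and 6 of the genes had a scored probe set of their own. The remaining gene, Ptger2, lay at the floor of the deposited values, taken here as any value within 0.01 log2 units of the lowest one, 2.23. After scaling that lowest value was 95.4 with vehicle and 95.1 with J147, so a scored probe set can lie barely above the floor. A difference is the log2 intensity with J147 minus that with vehicle after scaling, which shifts every deposited difference by -0.0046, and a gene was called when it was at least 1.5-fold higher or lower. Over all 10611 scored genes the median difference was -0.0046 and the SD was 0.17. At least 1.5-fold higher were 0.556% of scored genes, and at least 1.5-fold lower were 0.81%. Of the 6 scored members, 1 was called higher, namely Ptgs2, and 0 were called lower. At 2-fold, which 0.141% of scored genes reached in either direction, none of the 6 was called. Their median log2 difference was 0.13.

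The promoter of Ptgs2 is shown first because this gene had the largest difference of the members, and that of Ptges because 1 of its probe sets was also called. The sequences are from RefSeq on the mouse build GRCm38.p6 and run 5′ to 3′ on the strand of the gene. The arrays measure mRNA and give no reading of promoter activity or of factor binding. Capitals mark matches to any of 5 short motifs searched on both strands, which were TATAAA, the core CGTCA of the cAMP response element, the E-box CACGTG, the GC box GGGCGG and the EGR motif GCGNGGGCG. The Ptgs2 stretches lie on the plus strand, the first at chr1:150099781-150100030, which ends just before the annotated start. The second, at chr1:150100034-150100063, lies just after that annotated start. Where transcription begins in these cells was not tested. The Ptges stretch lies on the minus strand at chr2:30903298-30903547.
Ptgs2 before the start: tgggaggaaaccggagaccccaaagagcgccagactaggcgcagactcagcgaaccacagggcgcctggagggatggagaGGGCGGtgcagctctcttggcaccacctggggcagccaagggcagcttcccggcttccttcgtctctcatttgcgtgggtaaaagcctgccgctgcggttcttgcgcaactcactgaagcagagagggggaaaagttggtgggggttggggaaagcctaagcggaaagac
Ptgs2 after the start: gtcaccactaCGTCACGTGgagtccgcttt
Ptges before the start: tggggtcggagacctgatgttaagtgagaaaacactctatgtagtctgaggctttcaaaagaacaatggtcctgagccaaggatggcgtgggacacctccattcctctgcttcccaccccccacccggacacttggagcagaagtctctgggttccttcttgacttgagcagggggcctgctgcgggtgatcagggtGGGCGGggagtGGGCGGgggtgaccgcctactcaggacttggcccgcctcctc

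In Ptgs2 the core of the cAMP response element begins at base 14 and the E-box at base 17, counted from 1 at the annotated start, so these matches share 2 bases. The GC box of Ptgs2 begins at base -170, where -1 is the last base before the start. In Ptges the matches were a pair of GC boxes, which begin at bases -53 and -42. Of all 32851 windows of the same length, from 250 bases before to 50 after a start, CGTCA was in 20.8%, the E-box in 7.15%, the GC box in 35.7%, TATAAA in 13.6% and the EGR motif in 5.55%. Among the other members, Ptges2 has an E-box, Ptges3 a CGTCA and GC boxes, Ptger4 GC boxes, and the second annotated start of Pla2g4a a TATAAA. Ptgs1 and Ptger2 have no match, and Ptgis had no window to search. A match only says that these letters occur, and its part in any difference between the arrays was not tested.

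Ptgs2 encodes the inducible cyclooxygenase, and its 2 probe sets gave almost the same answer. Probe set 1417262_at had a deposited log2 intensity of 9.05 with vehicle and 9.86 with J147. That is 1.75-fold higher with J147, a log2 difference of 0.81. Probe set 1417263_at had 5.91 with vehicle and 6.75 with J147, 1.78-fold higher, a log2 difference of 0.83. All of these intensities were far from the floor, and the J147 array was the higher one in each case. Read from 1417262_at, which is the brighter, Ptgs2 stood at place 22 of the 10611 scored genes when ordered from the highest difference, and the probe sets stood at places 58 and 49 of the 22545 scored probe sets.

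**Figure D1:**
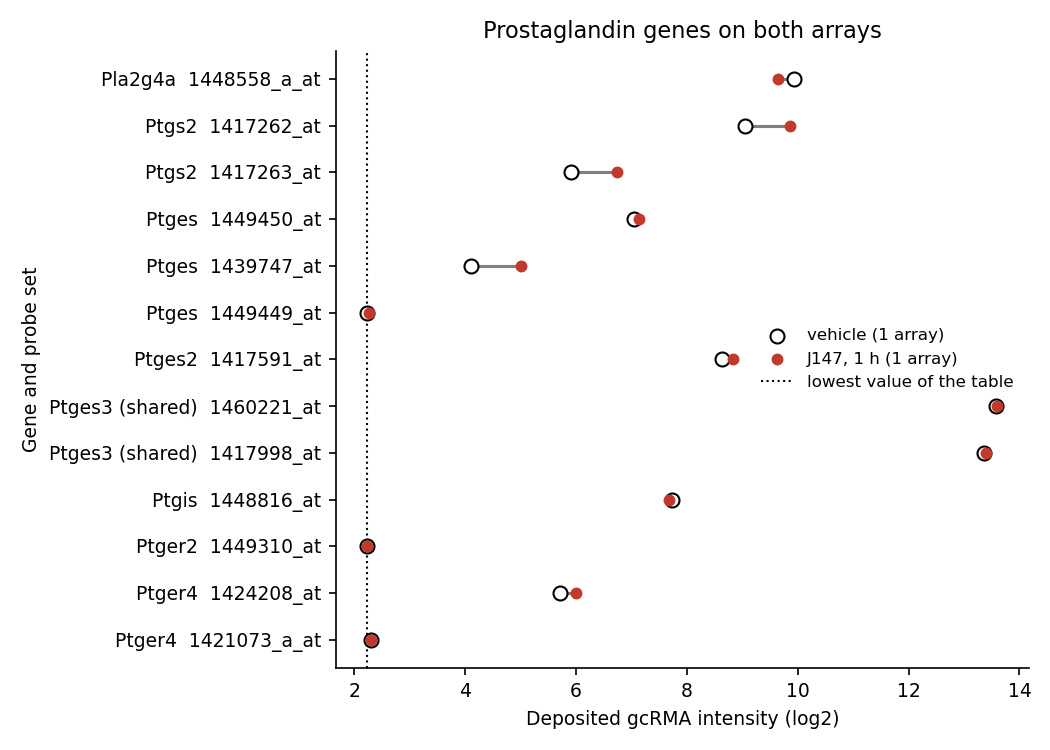
Deposited gcRMA intensity on the log2 scale (horizontal axis) of the 13 probe sets of the prostaglandin genes (vertical axis) with vehicle (open circles) and with J147 (filled circles), each from 1 array, and a grey line joining the values of a probe set. The dotted line is the floor, 2.23. The longest lines belong to both probe sets of Ptgs2 and to 1439747_at of Ptges, and the line of Pla2g4a runs the other way.

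The spread of differences between these arrays depended on the level, so each probe set was also set beside those of like level. The 2329 others that were scored and lay within 0.5 log2 units of 1417262_at had an SD of 0.14 in their log2 differences, 0.343% of them were at least 1.5-fold higher and 2 had a difference at least as high as its 0.81. Around 1417263_at, where levels are lower, the SD was 0.24 over 2102 probe sets and 9 were at least as high. The difference of Ptgs2 was larger than the SD at both levels, although an SD over probe sets is no replicate error.

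Probe sets of a gene test different stretches of its mRNA on the same pair of RNA samples, so they check the measurement and not the cultures. Of 5194 genes with 2 or more scored probe sets, 11 had all of them at least 1.5-fold higher with J147, which is 0.212%, and Ptgs2 was among the 11. Its probe sets differed from each other by 0.03 log2 units, against a median range of 0.14 over those genes. A range as narrow or narrower was seen in 12.2% of them.

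The scored genes most like Ptgs2 were taken from the 2956 others whose mean log2 level lay within 1 of it, by the log2 difference nearest to its own. Over 2 arrays such likeness says only that the change in log2 intensity was of the same size. They were Rhob, which encodes a small GTPase, with a log2 difference of 0.82, Fosl1, which encodes a FOS family transcription factor, with 0.76, and Kcnn4, which encodes a calcium-activated potassium channel, with 0.73.

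Pla2g4a encodes the cytosolic phospholipase A2 that supplies the cyclooxygenases with arachidonic acid, and it lay on the other side of 0. Its only probe set, 1448558_a_at, had a log2 intensity of 9.93 with vehicle and 9.65 with J147. The log2 difference was -0.29, or 1.22-fold lower with J147, which is not past 1.5-fold. Of all scored genes, 549 were at least as low, or 5.17%, and among the 2158 other scored probe sets of like level the number was 52, with an SD of 0.14. Pla2g4a and Ptgs2 lie close together on chromosome 1 with no protein-coding gene between them in the gene table of GRCm38.p6, and their differences had opposite signs.

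**Figure D2:**
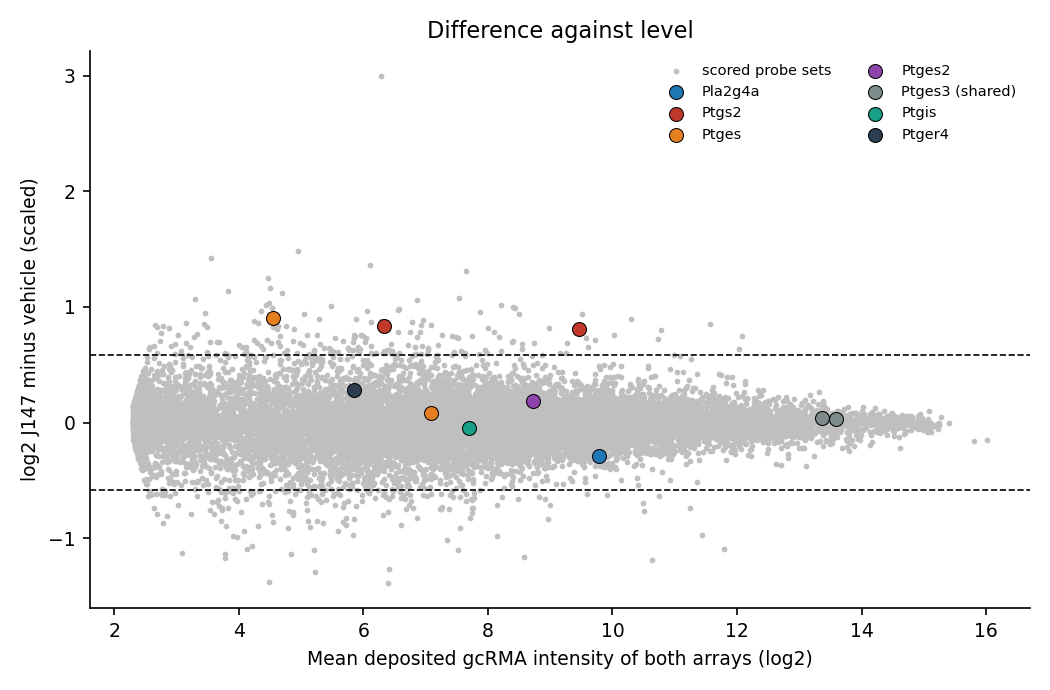
Log2 difference, J147 minus vehicle after scaling (vertical axis), against the mean deposited log2 intensity of both arrays (horizontal axis) for all 22545 scored probe sets (grey) and for those of the prostaglandin genes (coloured). Dashed lines mark 1.5-fold. Both Ptgs2 probe sets and 1 of Ptges lie above the upper line, and Pla2g4a, at -0.29, lies between the lines.

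None of the PGE2 synthase genes was called. Ptges encodes the inducible, glutathione-dependent synthase of the microsomal membrane, which is often made along with the inducible cyclooxygenase. Its 3 probe sets did not give 1 answer. The brightest, 1449450_at, had log2 intensities of 7.04 with vehicle and 7.13 with J147, a log2 difference of 0.08. Probe set 1439747_at had 4.10 with vehicle and 5.01 with J147, a log2 difference of 0.91 or 1.87-fold higher. The third, 1449449_at, was near the floor, at 2.23 and 2.27, and was not scored.

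Taken singly, 1439747_at was at place 29 of the scored probe sets, above both of Ptgs2, but at a low level where differences of that size were more frequent. Of the 1616 others that were scored and lay within 0.5 of its level, 2.35% were at least 1.5-fold higher and 9 were at least as high as 1439747_at, with an SD of 0.24. Over scored probe sets of every level, 0.856% were at least 1.5-fold higher. The 2 scored probe sets of Ptges differed by 0.82 log2 units, and 43 of the 5194 genes with several scored probe sets had a range at least as wide, or 0.828%. By its brightest probe set Ptges was at place 1849 of the scored genes and was not called. By the mean of its 2 scored probe sets its log2 difference was 0.49, which is not past 1.5-fold either.

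**Figure D3:**
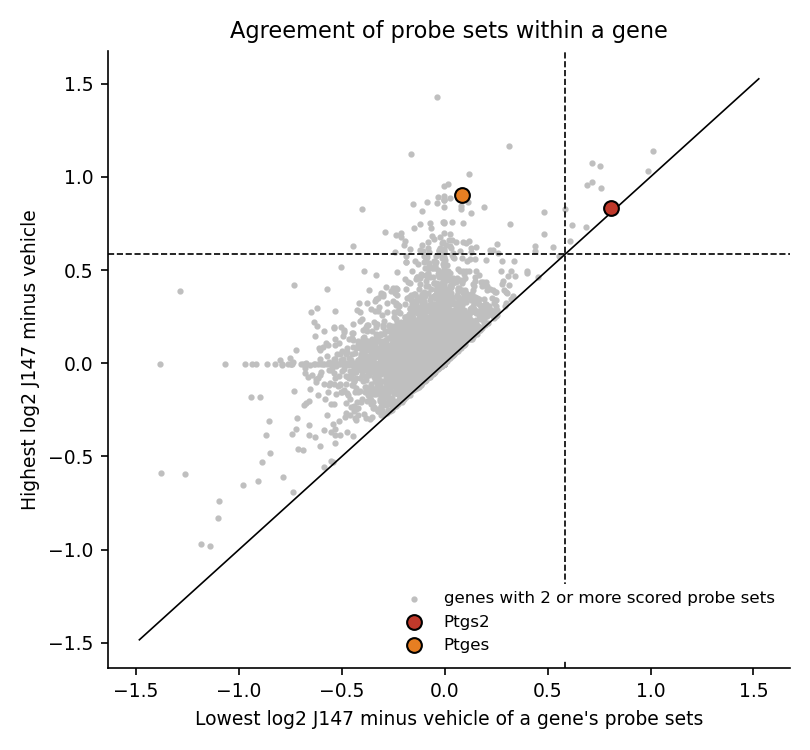
Highest (vertical axis) against lowest (horizontal axis) log2 difference, J147 minus vehicle, among the scored probe sets of each of 5194 genes with 2 or more (grey). Points on the solid diagonal have probe sets that gave equal differences, and dashed lines mark 1.5-fold. Ptgs2 lies close to the diagonal, at 0.81 and 0.83, and Ptges lies far above it, at 0.08 and 0.91.

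Ptges2 encodes a membrane-associated PGE2 synthase. Its single probe set 1417591_at had log2 intensities of 8.64 with vehicle and 8.83 with J147, a log2 difference of 0.18. Of the 2650 other scored probe sets of like level 215 were at least as high, and their SD was 0.16. Ptges3 encodes the cytosolic synthase, a protein better known as the HSP90 co-chaperone p23. The probe sets it shares with its pseudogene cannot be given to either one. They had log2 intensities of 13.4 with vehicle and 13.4 with J147 for 1417998_at, and 13.6 with vehicle and 13.6 with J147 for 1460221_at, with log2 differences of 0.04 and 0.03.

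Ptgis encodes prostacyclin synthase, an enzyme best known from endothelium and smooth muscle, and was measured above the floor on each array. Its probe set 1448816_at had log2 intensities of 7.72 with vehicle and 7.69 with J147, a log2 difference of -0.04. Of 5 endothelial markers none was above the floor on either array, against 7 of 7 fibroblast markers, 2 of 8 neuron markers, 2 of 7 markers of macrophages and microglia and 4 of 4 platelet markers. Levels above the floor ran from 2.51 to 14.1 for the fibroblast markers, 2.73 to 8.23 for the neuron markers, 3.48 to 4.96 for macrophages and microglia and 2.25 to 6.07 for platelets. The neuron markers above it were Tubb3 and Syp. With vehicle the platelet markers were at 2.25 for Pf4, 2.31 for Gp1bb, 3.32 for Itga2b and 5.91 for Ppbp. Pf4 and Gp1bb thus lay barely above the floor.

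Ptger4 and Ptger2 encode EP4 and EP2, the PGE2 receptors that raise cAMP. Probe set 1424208_at of Ptger4 had log2 intensities of 5.71 with vehicle and 5.99 with J147, a log2 difference of 0.28 or 1.21-fold higher. Ptger4 was at place 337 of the scored genes, and 142 of the 1922 other scored probe sets of like level were at least as high, with an SD of 0.24. Its other probe set, 1421073_a_at, had the same value of 2.30 on both arrays and was not scored. The probe set of Ptger2, 1449310_at, lay at the floor, 2.23, with vehicle and with J147, where a change would not be seen and absence of the mRNA is not shown.

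Beyond the members, 56 genes of prostaglandin and other eicosanoid pathways were listed by role, of which 52 had a probe set of their own. Of these 52, 20 were scored and 28 had every probe set at the floor on both arrays. None of the 20 was at least 1.5-fold higher or lower, and their median log2 difference was -0.01, beside -0.0046 over all scored genes. Of the 20, 3 had an identical deposited value on both arrays, as had 18.9% of all scored probe sets.

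The phospholipases held the largest difference of the list. Pla2g15, which encodes a lysosomal phospholipase, had log2 intensities of 6.81 with vehicle and 6.28 with J147 for 1423704_at, a log2 difference of -0.53 or 1.44-fold lower, while its other probe set had the same value of 2.33 on both arrays. Read from their brightest probe sets, the 9 scored phospholipase genes had their largest positive value in Pla2g10, a secreted enzyme. That log2 difference was 0.13, at a level near the floor. A less bright probe set of Plaa, listed with the phospholipases, had log2 intensities of 5.90 with vehicle and 6.33 with J147. Its log2 difference was 0.43, against -0.03 for the brightest of Plaa, 1429707_at. Another probe set of Plaa had the same value of 9.49 on both arrays. Of the other prostanoid synthases only Cbr1, a carbonyl reductase that can convert PGE2, was scored, with a log2 difference of 0.05. The synthase genes for prostaglandin D2, Ptgds and Hpgds, were not scored. Of the 5 genes of this role with a probe set of their own, 3 had every probe set at the floor.

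Of 8 genes listed with the other prostanoid receptors, 6 had every probe set at the floor, and the 1 scored was Ptgfrn, which encodes a protein that binds the prostaglandin F receptor and is no receptor itself, with a log2 difference of -0.09. Slco2a1, the transporter that takes prostaglandins into cells, had the largest positive difference of the list when genes were read from their brightest probe set. Its brightest probe set, 1420913_at, had log2 intensities of 10.3 with vehicle and 10.5 with J147, a log2 difference of 0.23. All 4 of its probe sets were scored and higher with J147, with log2 differences from 0.17 to 0.26. Ptgr2, which encodes a prostaglandin reductase, had the most negative difference of the transport and breakdown genes, -0.11, and Hpgd, which encodes the main inactivating dehydrogenase, was at the floor. Of 5 scored genes in the leukotriene arm, log2 differences ran from -0.20 for Mgst1, a microsomal glutathione transferase, to 0.05 for Lta4h, the leukotriene A4 hydrolase.

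**Figure D4:**
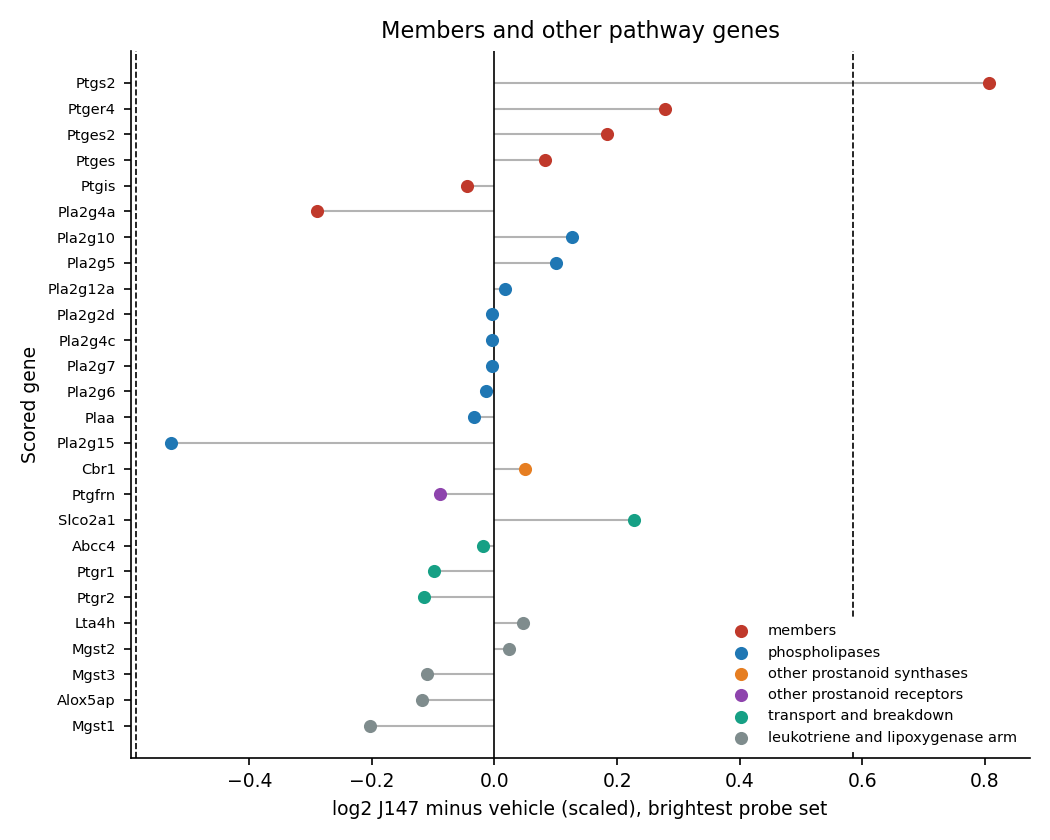
Difference in log2 intensity with J147 from vehicle (horizontal axis) for the 6 scored prostaglandin genes and the 20 scored genes of the wider eicosanoid list (vertical axis), each read from its brightest probe set and coloured by role. Dashed lines mark 1.5-fold. Ptgs2, at 0.81, is the only gene drawn past a line, and Pla2g15, at -0.53, comes nearest to the other.

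Facts of the arrays as a whole bear on these values. Apart from controls, 46.3% of probe sets lay at the floor with vehicle and 46.0% with J147. Controls moved in both directions between the arrays, by a median deposited log2 difference of -0.62 for 18S rRNA, -0.16 for the labelling spikes and 0.14 for the hybridization spikes, and their part in the differences above was not tested. The gap between 3′ and 5′ control probe sets changed by -0.06 for Gapdh and -0.03 for Actb.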

How the data were processed

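HT22 cells treated with J147 or DMSO vehicle were compared on 2 arrays, 1 each. The deposited values are log2 intensities that the authors made with gcRMA (version not given in the sources used), which corrects each probe's background by its GC content, with Affymetrix Expression Console 1.0 also named in the submitters' processing notes. The number of arrays limits all precision.

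Scaling set the median intensity of each array to 100 over 45037 non-control probe sets, of which 22545 with a mean above 100 were scored. The platform annotation gives 1 gene to 34945 probe sets, several to 932 and none to 9160. Symbols were updated through gene numbers to RefSeq (GRCm38.p6). A gene was read from its brightest scored probe set. No test was possible. The members, the eicosanoid list, the markers and the rule for named genes were chosen with earlier results of these data known. That rule took all members, listed genes past 1.5-fold, the highest and lowest difference of each role, and the 3 genes nearest to Ptgs2. The alternatives were other scalings, a lowess correction (span 0.3), a pseudocount of 50, other filters, other ways to combine probe sets and a threshold of 2-fold. Python 3.11.15, numpy 2.4.6, pandas 2.3.3, statsmodels 0.14.6 and matplotlib 3.10.9 were used, and the scoring was tested on simulated data.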

Additional observations from a re-analysis of the deposited data

How the results depend on the processing

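Across 10 alternatives, 119 of 122 recomputed values stayed close to those reported, which means within 1.5 times for counts and places, within 1 SD of the probe sets of like level for single differences, and within 1 SD over the root of the number of genes for medians. None reversed a called gene. Many of these values could hardly move, so the count is no measure of how firm they are. The filters on intensity leave a single difference as it was while its probe set stays scored. Using the deposited values only undoes the shift of -0.0046 that scaling gives to every difference. By the mean of the scored probe sets of a gene, the log2 difference of Ptges was 0.49 and the median of the 6 members was 0.23, since its less bright probe set then counts. At 2-fold, the number of members called higher was 0. Ptgs2 ran from 0.80 to 0.82 and from place 18 to place 22, and Pla2g4a from -0.29 to -0.28. Without probe sets suffixed _x_at, _s_at or _a_at, Pla2g4a has no value. Reading Ptges3 from its shared probe sets, a choice made after seeing the data, left 1 member called and gave a median of 0.08, as did leaving out the filter on intensity, which adds Ptger2 at the floor. The floor of the gcRMA values limits what can be seen for Ptger2. No paired analysis was possible because each condition has 1 array.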
